A study of Sus scrofa with 11 samples.

Results

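The genes described here encode the proteasome of pig liver and its regulators. They were chosen by symbol, as every gene named PSMA to PSMG followed by a number that reached at least 1 FPKM (fragments per kilobase of transcript, scaled to the mapped fragments of the library, so a level per transcript length) in at least 2 libraries. All 42 genes of this kind in the deposited table passed, out of 11644 genes that passed the same filter. By their known roles 40 of them are subunits or cofactors: 6 of the alpha ring, 5 constitutive and 3 immunoproteasome subunits of the beta ring, 6 ATPases and 14 other genes of the regulatory cap, 4 activators, 1 inhibitor and 1 assembly chaperone. The other 2, PSMC3IP and PSME3IP1, encode proteins that bind a proteasome component and carry its name without being subunits.

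The proteasome degrades proteins that carry ubiquitin chains. Its barrel-shaped core, the 20S particle, holds the proteolytic sites inside a pair of beta rings, closed off by alpha rings that act as a gate, and the 19S cap binds ubiquitin chains, unfolds the substrate with its ATPase ring and feeds it into the core. In cells exposed to interferon gamma, and constitutively in many leukocytes, the catalytic subunits PSMB5, PSMB6 and PSMB7 are replaced by PSMB8, PSMB9 and PSMB10, and the core can carry the 11S activator of PSME1 and PSME2, which favours peptides fit for presentation on MHC class I.

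The libraries were made from total RNA of wild-type pig livers: 2 controls of day 0, and 3 libraries each of livers that received 20, 30 or 40 Gy, taken at day 35. Every irradiated library came from the later day, so radiation and elapsed time cannot be told apart in a comparison with the controls. The labels give hepatocyte as the cell type, while the extract protocol speaks of pig livers. Levels of the 10 hepatocyte markers summed to 26927 to 56587 FPKM, and markers of endothelium (83.6 to 307 FPKM over 5 genes), macrophages (556 to 1548 FPKM over 10 genes) and T and NK cells (22.0 to 63.7 FPKM over 9 genes) were present in every library. The values are therefore described as those of liver tissue, in which fewer cells of a type and less RNA per cell cannot be told apart.

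Libraries are named by dose group and replicate number. The values of all genes in a library summed to between 520839 FPKM, in 40Gy-1, and 949840 FPKM, in 40Gy-3. In each library 10236 to 10866 genes reached 1 FPKM, and read depth is unknown. Over the 4806 genes with at least 5 FPKM everywhere, 30Gy-1 and 30Gy-2 differed by a standard deviation of 0.137 in log2 ratio, and 20Gy-3 and 30Gy-3, which carry different dose labels, by 0.13, against 0.305 to 1.008 for the other 53 pairs of libraries. Means and standard deviations below count 30Gy-1 and 30Gy-2 as 1 sample, while the tests keep all libraries unless stated. Library 40Gy-1 stood apart from 40Gy-2 and 40Gy-3: its summed leukocyte markers were 127 FPKM, against 40.9 to 66.8 FPKM in the other libraries, and its summed stellate cell markers 326 FPKM, against 38.7 to 159 FPKM. Nothing in the labels says whether the libraries of a group came from separate animals, so the p-values measure the spread between libraries, part of which may be technical.

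Per transcript length, the most abundant proteasome transcripts were mostly those of core subunits. PSMA7, an alpha ring subunit whose gene overlaps LSM14B, had 233 and 203 FPKM in the controls, 156, 246 and 139 FPKM at 20 Gy, 213, 200.01 and 141 FPKM at 30 Gy, and 210.4, 235 and 204 FPKM at 40 Gy. The beta ring genes PSMB1, PSMB4 and PSMB7 followed with medians over all libraries of 143, 141 and 138 FPKM, then the cap ATPase gene PSMC5 with 127 FPKM, the beta ring gene PSMB3 with 119 FPKM and the activator gene PSME1 with 117 FPKM. The ranges over libraries of each of these neighbours overlapped. At the low end, among genes of subunits and cofactors, stood PSME4 with a median of 5.995 FPKM, PSMB9 with 6.08 FPKM, PSMD10 with 6.11 FPKM and PSMA4 with 9.68 FPKM. Summed over the 40 subunits and cofactors, the level was 2277 and 1933 FPKM in the controls, 1438, 2083 and 1578 FPKM at 20 Gy, 2194, 2182 and 1615 FPKM at 30 Gy, and 1954, 2404 and 2587 FPKM at 40 Gy. The sums of the 4 groups overlapped. In FPKM as deposited, the lowest single libraries were 20Gy-1, 20Gy-3 and 30Gy-3, and the highest were 40Gy-3 and 40Gy-2. The order at the top depended on the scaling: as a share of all FPKM in the library, the proteasome sum was highest in 40Gy-1 (0.375%), then 20Gy-2 (0.311%), 30Gy-1 (0.289%), 40Gy-2 (0.284%), 30Gy-2 (0.280%) and 40Gy-3 (0.272%), while 20Gy-1, 20Gy-3 and 30Gy-3 were lowest at 0.224 to 0.230%.

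**Figure D1:**
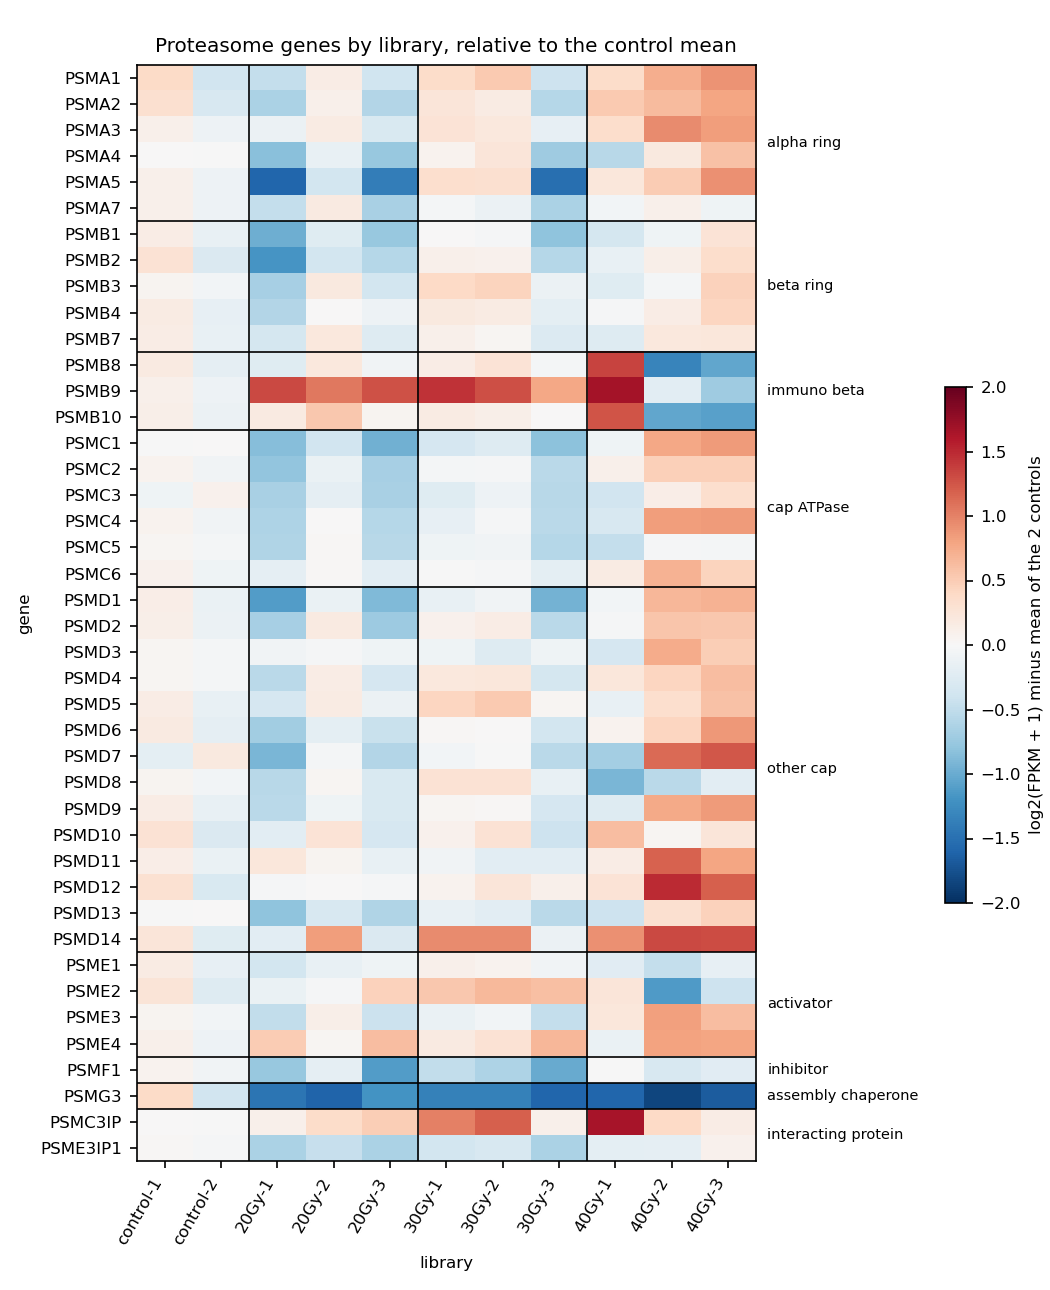
Level of each of the 42 proteasome genes (rows, grouped by class; immuno beta is the immunoproteasome) in each of the 11 libraries (columns, control then 20, 30 and 40 Gy), as log2(FPKM + 1) minus the mean of the 2 controls. Most core and cap genes are blue in 20Gy-1, 20Gy-3 and 30Gy-3 and red in 40Gy-2 and 40Gy-3, PSMG3 is blue in all 9 irradiated libraries, and PSMB8, PSMB9 and PSMB10 are darkest red in 40Gy-1.

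Single genes often had 20Gy-1 and 40Gy-3 at their ends, in FPKM as deposited and not rescaled to a common total. Library 20Gy-1 held the lowest value of 21 of the 42 genes (50%), against 12.7% of all genes tested. Library 40Gy-3 held the highest value of 21 of them (50%), against 12.4% of all genes tested. All 5 constitutive beta ring genes had their lowest value in 20Gy-1 and their highest in 40Gy-3. PSMA5, an alpha ring subunit, spread the most among constitutive core genes, with 28.5 and 24.5 FPKM in the controls, 8.16, 20.3 and 9.50 FPKM at 20 Gy, 33.7, 33.1 and 8.59 FPKM at 30 Gy, and 31.2, 37.9 and 50.6 FPKM at 40 Gy. It was lowest in 20Gy-1, 20Gy-3 and 30Gy-3, the same ones in which CYP2E1, a cytochrome P450 of hepatocytes, was at 62.3, 60.4 and 63.5 FPKM, against at least 1091 FPKM elsewhere. CYP2E1 is 1 of 10 hepatocyte markers and was singled out after its values were seen. Summed over the 10, these libraries had 32124, 33730 and 33979 FPKM. The 40 Gy libraries had 26927 to 31928 FPKM and the remaining ones 37638 to 56587 FPKM. Whether the difference in CYP2E1 has a part in the proteasome values was not tested.

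Against the controls, 1 of the 42 genes changed at any dose. It was PSMG3 (chromosome 3, 1052185 to 1054716, Sscrofa11.1), which encodes an assembly chaperone of the alpha ring. PSMG3 had 91.2 and 52.7 FPKM in the controls, 24.6, 22.1 and 29.7 FPKM at 20 Gy, 26.4, 26.5 and 22.5 FPKM at 30 Gy, and 22.5, 18.7 and 21.2 FPKM at 40 Gy. Every irradiated library lay below both controls, and the controls themselves differed more than any irradiated libraries did. The means were 71.9 ± 27.2 FPKM (SD, n = 2) in the controls, 25.5 ± 3.89 FPKM (SD, n = 3) at 20 Gy, 24.5 ± 2.78 FPKM (SD, n = 2) at 30 Gy and 20.8 ± 1.93 FPKM (SD, n = 3) at 40 Gy. Over all irradiated groups PSMG3 fell by 1.52 ± 0.21 on the log2(FPKM + 1) scale (SE; limma, adjusted p = 0.0037). When 20Gy-3 and 30Gy-3 were dropped and 30Gy-1 was averaged with 30Gy-2, the log2 change was -1.53 and the call was lost (limma, adjusted p = 0.072); averaging alone (adjusted p = 0.011) or the omissions alone (0.015) kept it.

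Separately, PSMG3 gave a log2 change of -1.42 ± 0.24 (SE; limma, adjusted p = 0.011) at 20 Gy. At 30 Gy it gave a log2 change of -1.43 ± 0.24 (SE; limma, adjusted p = 0.012), and at 40 Gy a log2 change of -1.69 ± 0.24 (SE; limma, adjusted p = 0.0042). These comparisons share the same 2 controls. The 20 Gy and the 30 Gy calls were lost without the first control, which held the highest value, and when each library was rescaled to a common total. The 20 Gy call was also lost without 20Gy-1 and the 30 Gy call without 20Gy-3 and 30Gy-3, and both calls under that averaging and dropping together (limma, adjusted p = 0.104 at 20 Gy and 0.510 at 30 Gy), while the 40 Gy call passed under all 22 alternatives. The 3 doses lay close together: PSMG3 differed by -0.27 on the log2 scale between 40 Gy and the mean of 20 and 30 Gy, which did not pass the test (limma, adjusted p = 0.327).

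That 1 gene is 2.38% of the proteasome genes, where limma called 4.71% of all genes in irradiated livers against controls (1.86% higher, 2.84% lower), 4.23% at 20 Gy (2.03% higher, 2.2% lower), 3.03% at 30 Gy (1.32% higher, 1.71% lower) and 7.39% at 40 Gy (2.99% higher, 4.41% lower). At an unadjusted p under 0.05, 3 proteasome genes (7.14%) passed over all irradiated groups, against 20.1% of all genes, 5 (11.9%) at 20 Gy, against 22.0%, 3 (7.14%) at 30 Gy, against 16.5%, and 7 (16.7%) at 40 Gy, against 24.8%. The median log2 change of the 42 genes over all irradiated groups was -0.04, against 0.01 for all genes, with 20 genes above 0; the sign of this median turned when libraries were rescaled to a common total (0.11, against 0.14 for all genes) and under quantile normalization (0.06, against -0.01). At 20 Gy the median was -0.27 (all genes -0.03), at 30 Gy -0.10 (all genes -0.02) and at 40 Gy 0.30 (all genes 0.06). Rescaling to a common total moved the median of all genes at 20 Gy to 0.18 and that of the proteasome genes to -0.03, and the proteasome median at 30 Gy to 0.0011, a change of sign.

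Over all irradiated groups, PSMG3 was the 1 gene whose libraries lay below the controls without overlap, and PSMC3IP the 1 gene above them, against 7.86% and 5.42% of all genes. PSMC3IP reached 1 FPKM only in irradiated libraries, so it passed the filter only where it was high. Its place above the controls therefore carries no weight, and it is also among the higher genes counted at each dose below. Dose by dose, 12 of the 42 genes (28.6%) were lower at 20 Gy than in the controls, where 23.2% of all genes were, and 2 (4.76%) were higher, against 19.1%. At 30 Gy 9 were lower (all genes 23.3%) and 4 higher (all genes 20.1%). At 40 Gy 3 were lower (all genes 17.9%) and 10 higher (all genes 19.5%). With 2 controls such separations are common, and apart from PSMG3 none passed the test.

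Several genes sat at the ends of their class in irradiated against control livers without passing the test. PSMF1, which encodes the inhibitor PI31, had 40.2 and 36.0 FPKM in the controls, 22.2, 33.5 and 17.0 FPKM at 20 Gy, 26.8, 24.3 and 18.4 FPKM at 30 Gy, and 37.9, 30.4 and 32.3 FPKM at 40 Gy. Its log2 change was -0.52 (limma, adjusted p = 0.247), and 20Gy-3 and 30Gy-3 were its lowest libraries. PSMD14, the deubiquitinating subunit of the cap lid, whose gene overlaps TBR1 and a pseudogene, had 14.1 and 9.90 FPKM in the controls, 10.1, 22.0 and 9.48 FPKM at 20 Gy, 23.6, 23.6 and 10.8 FPKM at 30 Gy, and 23.2, 31.2 and 30.9 FPKM at 40 Gy. Its change was 0.63 (limma, adjusted p = 0.35), with 40 Gy above both controls and 20 and 30 Gy overlapping them.

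PSME4, which encodes a nuclear activator, had 5.17 and 4.36 FPKM in the controls, 7.21, 4.88 and 7.86 FPKM at 20 Gy, 5.53, 5.995 and 8.11 FPKM at 30 Gy, and 4.27, 9.06 and 8.99 FPKM at 40 Gy. Its log2 change of 0.42 did not pass (limma, adjusted p = 0.408), and 20Gy-2 and 40Gy-1 lay within or below the controls. PSMA3 (log2 change 0.24) and PSMA5 (-0.28) were the ends of the alpha ring, PSMB3 (0.01) and PSMB1 (-0.33) those of the constitutive beta ring, PSMC6 (0.08) and PSMC5 (-0.27) those of the ATPases, and PSMD13 (-0.25) the low end of the rest of the cap; none of these passed. For the beta ring genes, PSMB3 had 127 and 117 FPKM in the controls, 76.9, 139.5 and 94.8 FPKM at 20 Gy, 160.3, 167 and 113 FPKM at 30 Gy, and 103, 119 and 169 FPKM at 40 Gy. PSMB1 had 176 and 143 FPKM in the controls, 80.4, 134 and 93.0 FPKM at 20 Gy, 159, 155 and 90.7 FPKM at 30 Gy, and 124, 149.5 and 192 FPKM at 40 Gy. Both were lowest in 20Gy-1 and highest in 40Gy-3, in FPKM as deposited.

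Among the cap genes at the ends, PSMC6 had 30.3 and 26.8 FPKM in the controls, 25.05, 28.9 and 24.5 FPKM at 20 Gy, 28.2, 28.0 and 24.9 FPKM at 30 Gy, and 32.1, 46.9 and 39.3 FPKM at 40 Gy. PSMC5, whose gene overlaps FTSJ3, had 137 and 131 FPKM in the controls, 88.6, 136 and 91.1 FPKM at 20 Gy, 126, 127 and 90.1 FPKM at 30 Gy, and 95.7, 132 and 131 FPKM at 40 Gy. The 40 Gy libraries of PSMC6 were above both controls, whereas PSMC5 was lowest in 20Gy-1 and its controls lay among the highest libraries. PSMD13, a lid subunit, had 43.8 and 44.2 FPKM in the controls, 24.7, 35.04 and 28.6 FPKM at 20 Gy, 39.6, 37.7 and 29.9 FPKM at 30 Gy, and 32.8, 55.4 and 61.0 FPKM at 40 Gy, with all 20 and 30 Gy libraries below both controls and only 40Gy-2 and 40Gy-3 above them.

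The named proteins outside the particle had unlike levels. PSMC3IP, a partner of meiotic recombination proteins, was near the filter on low values, with 0.210 and 0.205 FPKM in the controls, 0.296, 0.556 and 0.700 FPKM at 20 Gy, 1.42, 1.76 and 0.301 FPKM at 30 Gy, and 2.79, 0.590 and 0.341 FPKM at 40 Gy. Only 30Gy-1, 30Gy-2 and 40Gy-1 reached 1 FPKM, so it passed the filter on 2 libraries that are nearly identical and on 40Gy-1. PSME3IP1, a protein that binds PSME3, had 18.5 and 17.8 FPKM in the controls, 11.3, 12.9 and 11.3 FPKM at 20 Gy, 13.8, 14.3 and 11.3 FPKM at 30 Gy, and 15.6, 16.0 and 19.3 FPKM at 40 Gy. Its log2 change of -0.37 did not pass (limma, adjusted p = 0.197).

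Between 30 and 20 Gy none of the 42 genes was called by limma, as for all 11644 genes; 0 of the 42 and 280 of all genes (2.4%) had an unadjusted p under 0.05. Of the 42 genes 35 had a positive log2 change, with a median of 0.25, against 0.01 for all genes. This median was 0.10 with 28 genes above 0 when libraries were rescaled to a common total (all genes -0.11), 0.12 without 20Gy-1, 0.38 without 20Gy-2, 0.16 without 30Gy-2 and 0.17 with 30Gy-1 and 30Gy-2 averaged. PSMA5, with the widest spread, was at 8.59 to 33.7 FPKM at 30 Gy and 8.16 to 20.3 FPKM at 20 Gy.

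Livers that received 40 Gy had higher levels of several core and cap genes than those at 20 and 30 Gy. Of the 42 genes 10 rose and 0 fell by limma in 40 Gy against the mean of 20 and 30 Gy: PSMA2 and PSMA3 of the alpha ring, the ATPases PSMC1, PSMC2 and PSMC6, the cap genes PSMD1, PSMD6, PSMD11 and PSMD12, and the activator gene PSME3. That is 23.8%, against 21.5% of all genes called in this comparison (11.8% higher, 9.71% lower). The share called was close to that of all genes with both directions together, and above it for higher genes alone. The count moved with single libraries: it was 25 without 40Gy-1, described further on, and 0 without 40Gy-2 (all genes 7.33%), without 40Gy-3 (all genes 10.3%), or without both 20Gy-3 and 30Gy-3 (all genes 10.3%). The count was 3 without 20Gy-1 (all genes 14%), 2 without 20Gy-3 (14.8%), 4 without 30Gy-3 (16.1%) and 17 without 20Gy-2 (23.5%). With 30Gy-1 and 30Gy-2 averaged it was 8 (15.4%). By gene, the call in this comparison was lost under 4 of 22 alternatives for PSMC1 and PSME3 and under 12 for PSMC6. For PSMA2 and PSMD11 it was lost under 9, for PSMC2 under 8, and for PSMA3, PSMD1, PSMD6 and PSMD12 under 7. Of the 10 genes, PSMC1 overlaps NRDE2, PSMD1 HTR2B, PSMD6 ATXN7 and PSMA3 a long noncoding RNA in the annotation, and reads of overlapping genes may not be separated.

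Markers of cell types moved in the same comparison. Limma called 21.5% of all genes in it (11.8% higher, 9.71% lower). Of 10 hepatocyte markers 3 fell and none rose (30%), and 4 had a log2 change above 0. Their sum was 26927 to 31928 FPKM at 40 Gy, against 32124 to 42258 FPKM at 20 and 30 Gy. Of 10 macrophage markers 3 rose and none fell (30%), with sums of 931 to 1548 FPKM at 40 Gy, against 556 to 1058 FPKM. Of 3 B and plasma cell markers 2 rose (66.7%), with 71.0 to 109 FPKM, against 39.7 to 45.1 FPKM. Of 9 T and NK cell markers 4 fell (44.4%), with 22.0 to 63.7 FPKM, against 43.4 to 46.4 FPKM. Of 5 leukocyte markers 1 rose (20%). None of 5 endothelium, 6 stellate cell and 2 bile duct markers was called, with 5, 0 and 0 above 0. No tested marker of these lists was at 0 in any library, and the part of these cells in the proteasome values was not tested.

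PSMC1 encodes an ATPase subunit of the ring that docks on the core. It lies on chromosome 7, 112027904 to 112041360 (Sscrofa11.1), and had 51.1 and 52.0 FPKM in the controls, 28.0, 39.5 and 25.9 FPKM at 20 Gy, 40.7, 42.7 and 28.9 FPKM at 30 Gy, and 48.3, 88.7 and 94.3 FPKM at 40 Gy. All 40 Gy libraries were above all 20 and 30 Gy libraries, 40Gy-1 was just below both controls, and 40Gy-2 and 40Gy-3 were well above them. The means were 51.6 ± 0.665 FPKM (SD, n = 2) in the controls, 31.2 ± 7.31 FPKM (SD, n = 3) at 20 Gy, 35.3 ± 9.07 FPKM (SD, n = 2) at 30 Gy and 77.1 ± 25.1 FPKM (SD, n = 3) at 40 Gy. In 40 Gy against 20 and 30 Gy livers it showed a log2 change of 1.11 ± 0.24 (SE; limma, adjusted p = 0.012). It was also the only proteasome gene besides PSMG3 that passed the joint test of any difference among the 4 groups (limma, adjusted p = 0.046), a test that 2 of 42 proteasome genes (4.76%) and 13.8% of all genes passed. This call of PSMC1 was lost under 13 of 22 alternatives, and its adjusted p was 0.0037 to 0.159 when 1 library at a time was left out.

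PSMC2, another ATPase, had 32.5 and 29.1 FPKM in the controls, 17.4, 28.0 and 19.1 FPKM at 20 Gy, 30.0, 30.2 and 20.9 FPKM at 30 Gy, and 33.2, 43.3 and 43.3 FPKM at 40 Gy. At 40 Gy it lay above every 20 and 30 Gy library, with a log2 change of 0.72 ± 0.20 (SE; limma, adjusted p = 0.028). PSMC6, the third ATPase called, showed a log2 change of 0.54 ± 0.15 (SE; limma, adjusted p = 0.031). The other ATPase genes did not pass: PSMC4 had a log2 change of 0.77 (limma, adjusted p = 0.069), PSMC3 of 0.42 and PSMC5 of 0.13. PSMC4 was split within the 40 Gy group, at 17.99 FPKM in 40Gy-1, 41.1 FPKM in 40Gy-2 and 41.7 FPKM in 40Gy-3, against 14.3 to 22.8 FPKM at 20 and 30 Gy.

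In the rest of the cap, PSMD12, a scaffold subunit of the lid, had 11.9 and 7.56 FPKM in the controls, 9.34, 9.62 and 9.29 FPKM at 20 Gy, 10.1, 11.5 and 10.2 FPKM at 30 Gy, and 11.8, 28.6 and 23.0 FPKM at 40 Gy. In 40Gy-2 and 40Gy-3 it was above all other libraries, while 40Gy-1 exceeded the highest 30 Gy library by little and lay below the first control. In 40 Gy against 20 and 30 Gy livers it showed a log2 change of 0.92 ± 0.24 (SE; limma, adjusted p = 0.025). PSMD11, a neighbouring lid subunit, had 21.8 and 18.1 FPKM in the controls, 23.3, 20.7 and 17.7 FPKM at 20 Gy, 18.9, 17.0 and 17.0 FPKM at 30 Gy, and 22.1, 46.3 and 34.8 FPKM at 40 Gy. There 40Gy-1 overlapped 20Gy-1, and the group gave a log2 change of 0.76 ± 0.21 (SE; limma, adjusted p = 0.030).

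PSMD6, also of the lid, gave a log2 change of 0.74 ± 0.21 (SE; limma, adjusted p = 0.030), and PSMD1, the large scaffold of the cap base, gave a log2 change of 0.99 ± 0.28 (SE; limma, adjusted p = 0.034). Of the other 10 cap genes none passed. PSMD7, the lid partner of PSMD14, had the largest ratio of highest to lowest 40 Gy library among cap genes, with 25.8 and 34.0 FPKM in the controls, 15.3, 28.8 and 19.5 FPKM at 20 Gy, 28.4, 29.6 and 20.0 FPKM at 30 Gy, and 18.1, 66.5 and 71.2 FPKM at 40 Gy. It was lower in 40Gy-1 than in either control, and at least 66.5 FPKM in the other 40 Gy libraries, above all others. PSMD8, a further lid subunit, was the 1 cap gene with a negative value in this comparison (-0.49; limma, adjusted p = 0.114), with 42.8, 55.9 and 70.4 FPKM at 40 Gy, against 55.2 to 100.2 FPKM at 20 and 30 Gy. All 14 of these genes are listed as cap genes by name; PSMD5, PSMD9 and PSMD10 encode chaperones of cap assembly and showed log2 changes of 0.14, 0.65 and 0.35, none of which passed.

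**Figure D2:**
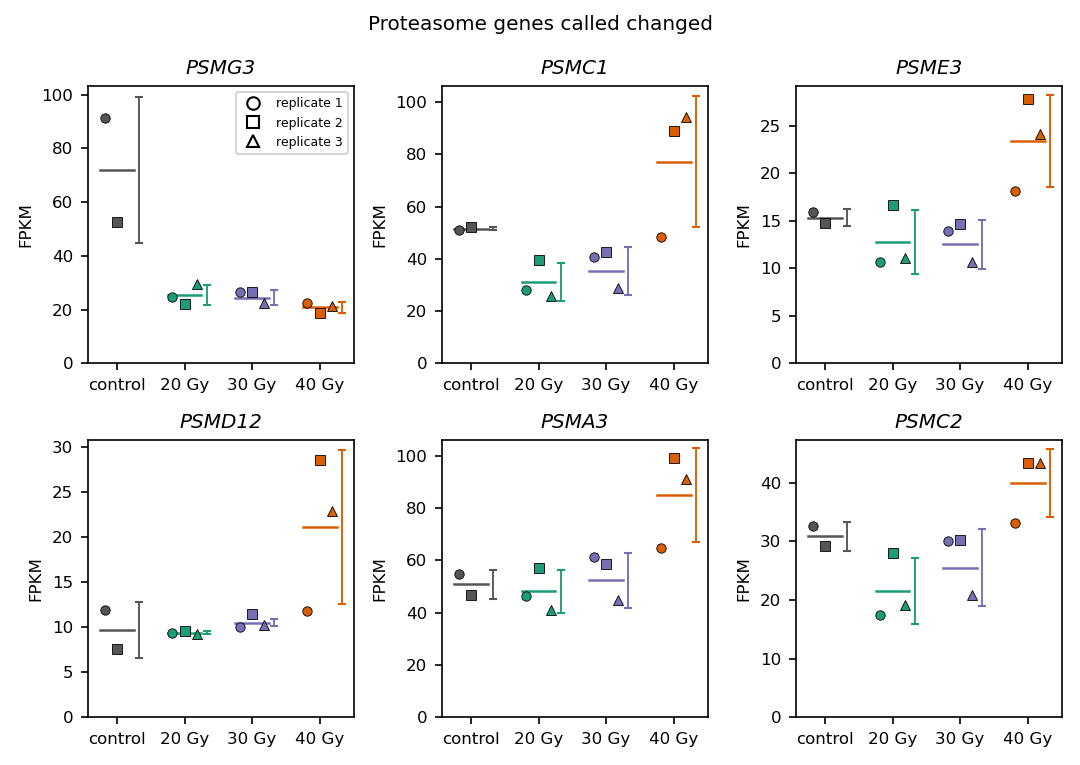
Level in FPKM (vertical axes, from 0) of PSMG3 and of the 5 genes with the smallest adjusted p in 40 Gy against 20 and 30 Gy livers, in the controls and at 20, 30 and 40 Gy. Points are libraries, horizontal lines group means and bars SD, with 30Gy-1 and 30Gy-2 counted as 1; PSMG3 lies between 18.7 and 29.7 FPKM in every irradiated library, against 91.2 and 52.7 FPKM in the controls, and the others are highest in 40Gy-2 or 40Gy-3.

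In the alpha ring, PSMA3 had 54.7 and 46.9 FPKM in the controls, 46.4, 57.2 and 41.0 FPKM at 20 Gy, 61.3, 58.5 and 45.0 FPKM at 30 Gy, and 64.7, 99.0 and 91.1 FPKM at 40 Gy. Its 40 Gy libraries were above all others, 40Gy-1 the least, with a log2 change of 0.70 ± 0.19 (SE; limma, adjusted p = 0.028). PSMA2 showed a log2 change of 0.86 ± 0.25 (SE; limma, adjusted p = 0.034). PSMA5 had a higher value, 1.25, with a larger standard error of 0.42, and did not pass (limma, adjusted p = 0.059); its 40 Gy libraries overlapped 30Gy-1 and 30Gy-2. The constitutive beta ring had no call among its 5 genes, which had log2 changes of 0.08 for PSMB3 to 0.52 for PSMB2.

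The other core genes were all lowest in 20Gy-1. PSMA1 of the alpha ring ranged from 18.6 FPKM in 20Gy-1 to 50.03 FPKM in 40Gy-3. PSMA2 ranged from 16.8 FPKM in 20Gy-1 to 46.5 FPKM in 40Gy-3, and PSMA4 from 5.06 FPKM in 20Gy-1 to 15.1 FPKM in 40Gy-3. In the beta ring PSMB2 ranged from 12.5 FPKM in 20Gy-1 to 37.9 FPKM in 40Gy-3, and PSMB4 from 93.9 FPKM in 20Gy-1 to 191 FPKM in 40Gy-3. All 5 were highest in 40Gy-3, in FPKM as deposited and not rescaled, where 40Gy-3 had the largest total of all libraries.

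The other cap genes are given by their range, in FPKM as deposited. PSMC3 ranged from 34.3 FPKM in 20Gy-1 to 68.8 FPKM in 40Gy-3, and PSMC4 from 14.3 FPKM in 20Gy-1 to 41.7 FPKM in 40Gy-3. Among the scaffolds of the base, PSMD1 ranged from 6.52 FPKM in 20Gy-1 to 25.5 FPKM in 40Gy-3 and PSMD2 from 29.5 FPKM in 20Gy-3 to 73.1 FPKM in 40Gy-2. The ubiquitin receptor PSMD4 ranged from 39.6 FPKM in 20Gy-1 to 88.9 FPKM in 40Gy-3. These were lowest in 20Gy-1 except PSMD2, which was lowest in 20Gy-3, and highest in 40Gy-2 or 40Gy-3. Of the lid, PSMD3 ranged from 66.3 FPKM in 40Gy-1 to 140.4 FPKM in 40Gy-2 and PSMD6 from 13.2 FPKM in 20Gy-1 to 41.4 FPKM in 40Gy-3. Of the assembly chaperones of the cap, PSMD5 ranged from 10.96 FPKM in 20Gy-1 to 21.7 FPKM in 40Gy-3, PSMD9 from 9.71 FPKM in 20Gy-1 to 27.0 FPKM in 40Gy-3 and PSMD10 from 3.99 FPKM in 30Gy-3 to 9.20 FPKM in 40Gy-1. PSMD10 was the 1 gene among these that was highest in 40Gy-1, and PSMD3 the 1 that was lowest there.

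Class medians of the log2 change in 40 Gy against 20 and 30 Gy livers were 0.70 for the alpha ring, 0.28 for the constitutive beta ring, 0.63 for the ATPases and 0.63 for the rest of the cap, against 0.07 for all genes. With libraries rescaled to a common total they were 0.63, 0.20, 0.56 and 0.55, and under quantile normalization 0.71, 0.44, 0.59 and 0.60, in the same order of classes. The number of genes above 0 was 6 of 6, 5 of 5, 6 of 6 and 13 of 14 in the main test. Groups without overlap were seen for 11 of the 42 genes (26.2%), all higher at 40 Gy, where 13% of all genes were higher without overlap and 10.8% lower.

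**Figure D3:**
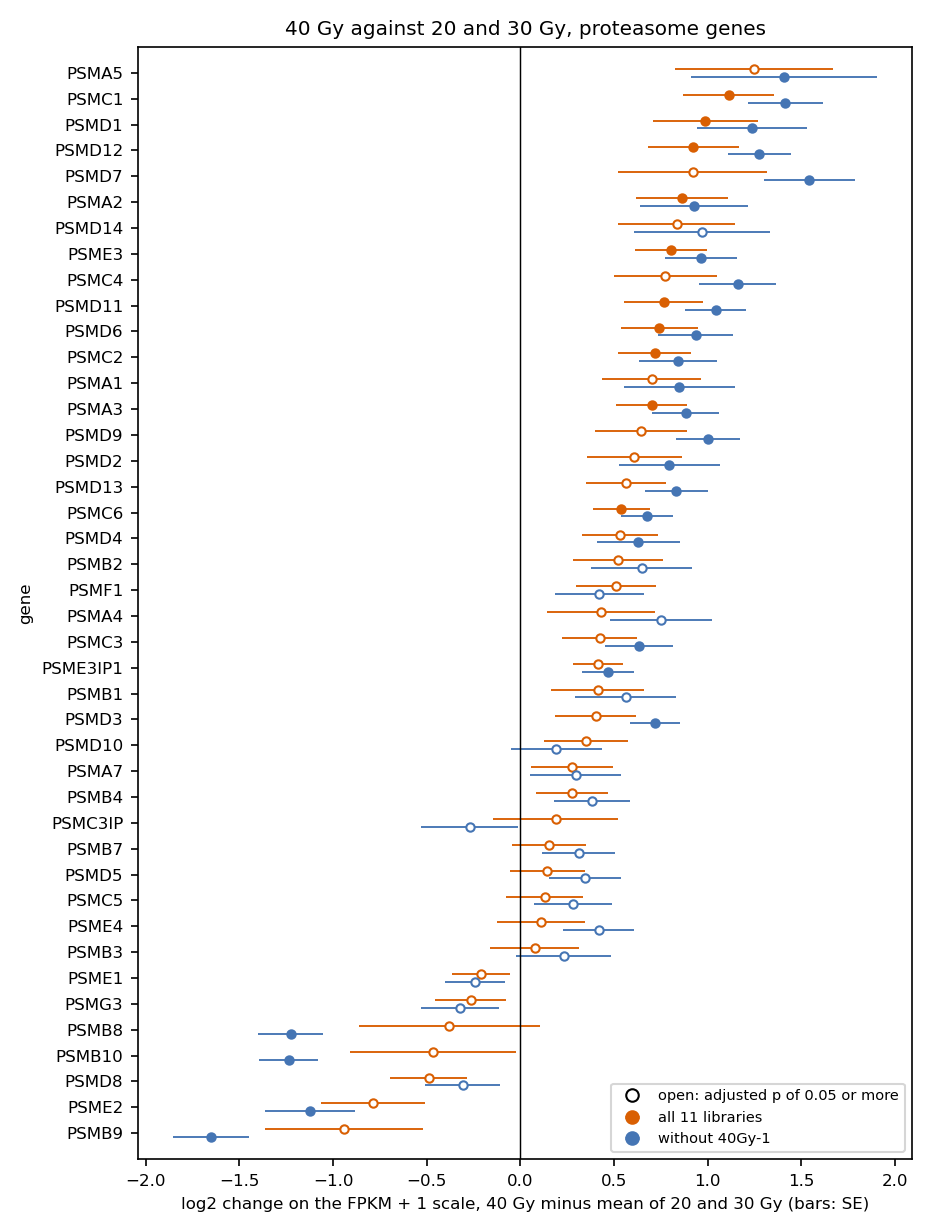
Log2 change on the FPKM + 1 scale (horizontal axis) of each proteasome gene (vertical axis, sorted) in 40 Gy against the mean of 20 and 30 Gy livers, with bars of 1 SE, from all 11 libraries (orange) and without 40Gy-1 (blue); filled points have an adjusted p under 0.05. Filled points number 10 with all libraries and 25 without 40Gy-1, and the blue points of PSMB8, PSMB9, PSMB10 and PSME2 are filled on the negative side.

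Of the 4 activator genes 1 rose. PSME3, which forms a nuclear activator with no need of ATP, had 16.0 and 14.7 FPKM in the controls, 10.7, 16.6 and 11.08 FPKM at 20 Gy, 14.0, 14.6 and 10.7 FPKM at 30 Gy, and 18.2, 27.8 and 24.1 FPKM at 40 Gy. Its 40 Gy libraries were above all others, and it showed a log2 change of 0.80 ± 0.19 (SE; limma, adjusted p = 0.016). PSME4 had a log2 change of 0.11 in the same comparison, which did not pass. PSMF1 gave 0.51 (limma, adjusted p = 0.109), with its 40 Gy libraries overlapping 20Gy-2.

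The interferon-responsive activator genes PSME1 and PSME2 lie side by side on chromosome 7 (PSME2 at 75154570 to 75157871, PSME1 at 75161830 to 75164531, Sscrofa11.1), 3958 bases apart. PSME2 had 79.0 and 55.2 FPKM in the controls, 60.1, 64.7 and 91.4 FPKM at 20 Gy, 96.6, 104 and 101 FPKM at 30 Gy, and 78.0, 29.4 and 49.6 FPKM at 40 Gy. The 30 Gy libraries were all above both controls, 40Gy-2 and 40Gy-3 were below both, and 40Gy-1 lay just below the first control. PSME2 did not pass in 30 Gy against control livers (0.60; limma, adjusted p = 0.459) or in 40 Gy against 20 and 30 Gy livers (-0.79; limma, adjusted p = 0.068). PSME1 had 146 and 116 FPKM in the controls, 101, 117 and 122 FPKM at 20 Gy, 139.9, 137 and 124 FPKM at 30 Gy, and 111, 93.0 and 115 FPKM at 40 Gy. It varied less, from 93.0 FPKM in 40Gy-2 to 146 FPKM in the first control, and was called in no comparison with all libraries. PSME1 overlaps EMC9 in the annotation, and the strand setting of the authors' counting is unknown here; reads of the pair may not be separated.

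The immunoproteasome genes differed more between libraries of 40 Gy than between dose groups. PSMB8 and PSMB9 lie 10466 bases apart on chromosome 7 with TAP1, a subunit of the peptide transporter of antigen presentation, between them (PSMB8 at 25058456 to 25061666, PSMB9 at 25072133 to 25077508, Sscrofa11.1), and PSMB10 lies on chromosome 6 (28544910 to 28547609). PSMB8, the catalytic subunit that replaces PSMB5, had 19.04 and 14.5 FPKM in the controls, 13.9, 19.4 and 15.8 FPKM at 20 Gy, 18.5, 20.4 and 16.1 FPKM at 30 Gy, and 44.2, 6.09 and 7.55 FPKM at 40 Gy. The value in 40Gy-1 was the highest of all, those in 40Gy-2 and 40Gy-3 the lowest, and the control, 20 Gy and 30 Gy libraries overlapped.

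PSMB10, which replaces PSMB7, had 29.1 and 24.7 FPKM in the controls, 30.6, 39.3 and 27.8 FPKM at 20 Gy, 30.2, 29.1 and 27.1 FPKM at 30 Gy, and 65.4, 12.6 and 12.1 FPKM at 40 Gy. It showed the same order: 40Gy-1 above and the other 40 Gy libraries below all others. PSMB9, which replaces PSMB6, had 2.67 and 2.17 FPKM in the controls, 7.49, 6.08 and 7.24 FPKM at 20 Gy, 8.29, 7.33 and 4.86 FPKM at 30 Gy, and 9.87, 1.95 and 1.09 FPKM at 40 Gy. All libraries of 20 and 30 Gy and 40Gy-1 were above both controls, and 40Gy-2 and 40Gy-3 below them.

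None of these 3 genes passed the test in any comparison with all libraries. Each did in at least 1 comparison without 40Gy-1, a library singled out after its values were seen. For PSMB9 the log2 change was 1.21 ± 0.55 at 20 Gy (SE; limma, adjusted p = 0.228) and 1.17 ± 0.55 at 30 Gy (SE; limma, adjusted p = 0.321), although no 20 or 30 Gy library overlapped the controls. Without 40Gy-1 the same log2 changes passed at 20 Gy (limma, adjusted p = 0.0093) and at 30 Gy (0.014), in fits that called 14.3% and 9.62% of all genes. In 40 Gy against 20 and 30 Gy livers PSMB8, PSMB9 and PSMB10 had log2 changes of -0.38, -0.94 and -0.47 (limma, adjusted p = 0.597, 0.135 and 0.469).

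**Figure D4:**
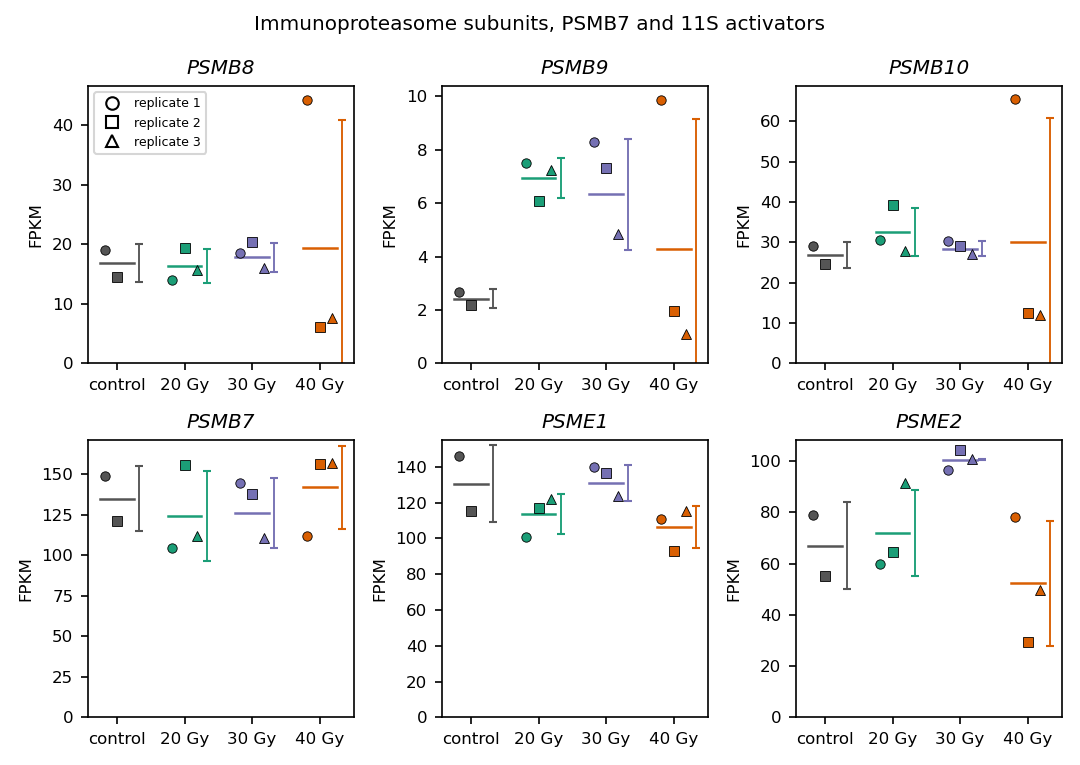
Level in FPKM (vertical axes, from 0) of the immunoproteasome genes PSMB8, PSMB9 and PSMB10, of PSMB7 and of the 11S activator genes PSME1 and PSME2 in the controls and at 20, 30 and 40 Gy. Points are libraries, lines group means and bars SD, with 30Gy-1 and 30Gy-2 counted as 1 and bars that pass below 0 ended there; replicate 1 of 40 Gy is at 44.2, 9.87 and 65.4 FPKM for PSMB8, PSMB9 and PSMB10, far above replicates 2 and 3.

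Leaving out 40Gy-1 changed these results. That library was singled out after its values were seen, in these genes too. The adjusted p-values without it are therefore no independent support. In 40 Gy (then 40Gy-2 and 40Gy-3) against 20 and 30 Gy livers, PSMB8 then fell by 1.23 (limma, adjusted p = 0.00076), PSMB9 by 1.65 (0.00033), PSMB10 by 1.24 (0.00039) and PSME2 by 1.12 (0.0057) on the log2 scale. In the same fit 21 genes rose, 4 of the alpha ring, 5 ATPases, 10 other cap genes, PSME3 and PSME3IP1, and none of the constitutive beta ring. The total of 25 is 59.5% of the 42 genes, against 40% of all genes (21.9% higher, 18.1% lower). Against the controls, 13 of the 42 genes passed at 40 Gy without 40Gy-1, 10 higher and 3 lower, against 23% of all genes (11.7% higher, 11.4% lower); the 3 that fell were PSMB8 by 1.18, PSMB10 by 1.06 and PSMG3 by 1.75.

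Averaging 30Gy-1 with 30Gy-2 and leaving out 20Gy-3, 30Gy-3 and 40Gy-1 together, an alternative chosen after seeing the data, left 41 proteasome genes, of which 14 passed in 40 Gy against 20 and 30 Gy livers (10 higher, 4 lower; 34.1%, against 24.9% of all genes). The same averaging and omissions with 40Gy-1 kept gave 0, against 1.77% of all genes.

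As a share of PSMB7, its constitutive counterpart, PSMB10 was 19.5 and 20.4% in the controls, 29.2, 25.2 and 24.9% at 20 Gy, 20.9, 21.2 and 24.5% at 30 Gy, and 58.3, 8.07 and 7.68% at 40 Gy. This ratio within a library does not depend on how the library was scaled. All libraries of 20 and 30 Gy were above both controls, but the nearly identical 30Gy-1 and 30Gy-2 only slightly. With 2 controls such separations are common among single genes, and this ratio was not tested. Library 40Gy-1 was highest, and the other 40 Gy libraries were below both controls. PSMB7 itself had 149 and 121 FPKM in the controls, 105, 156 and 112 FPKM at 20 Gy, 145, 138 and 111 FPKM at 30 Gy, and 112, 156 and 157 FPKM at 40 Gy, and its groups overlapped. Measured against the mean of PSMB1, PSMB2, PSMB3, PSMB4 and PSMB7 in place of PSMB7 alone, a denominator chosen after seeing the data, the mean of PSMB8, PSMB9 and PSMB10 lay at a log2 ratio of -3.32 and -3.30 in the controls, -2.56 to -2.02 at 20 Gy, -2.78 to -2.58 at 30 Gy and -1.52, -4.33 and -4.81 in the 40 Gy libraries. The genes in this mean did not move alike. Against PSMB7, which is the counterpart of neither, PSMB9 had mean log2 ratios of -5.80 in the controls, -4.14 at 20 Gy and -4.29 at 30 Gy. For PSMB8 these ratios were -3.01, -2.91 and -2.83. PSMB9 was also low, at 1.09 to 9.87 FPKM over all libraries.

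Marker genes of immune cells were set beside the immunoproteasome genes. Summed leukocyte markers, 5 genes of which none was at 0 in any library, were 56.1 and 40.9 FPKM in the controls, 49.4, 66.8 and 43.4 FPKM at 20 Gy, 61.7, 60.7 and 47.4 FPKM at 30 Gy, and 127, 53.0 and 48.4 FPKM at 40 Gy. The summed immunoproteasome genes were 50.9 and 41.4 FPKM in the controls, 52.0, 64.8 and 50.8 FPKM at 20 Gy, 57.0, 56.9 and 48.1 FPKM at 30 Gy, and 119.5, 20.6 and 20.7 FPKM at 40 Gy. Both were highest in 40Gy-1, where they also stood apart from every other library. In 40Gy-2 and 40Gy-3 the immunoproteasome sum was the lowest of all, and the leukocyte sum lay within the range of the controls, 20 and 30 Gy. By gene, the median log2 difference of the 5 leukocyte markers from the control mean was -0.26 in 40Gy-3, the lowest of all libraries, and -0.05 in 40Gy-2. It was 0.14 to 0.38 at 20 and 30 Gy, and 0.17 and -0.17 in the controls. Summed T and NK cell markers were 31.5 and 30.8 FPKM in the controls, 43.4, 43.4 and 45.2 FPKM at 20 Gy, 46.4, 44.2 and 44.7 FPKM at 30 Gy, and 63.7, 23.2 and 22.0 FPKM at 40 Gy, again highest in 40Gy-1 and lowest in 40Gy-2 and 40Gy-3. The part of these cells in the immunoproteasome values was not tested.

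**Figure D5:**
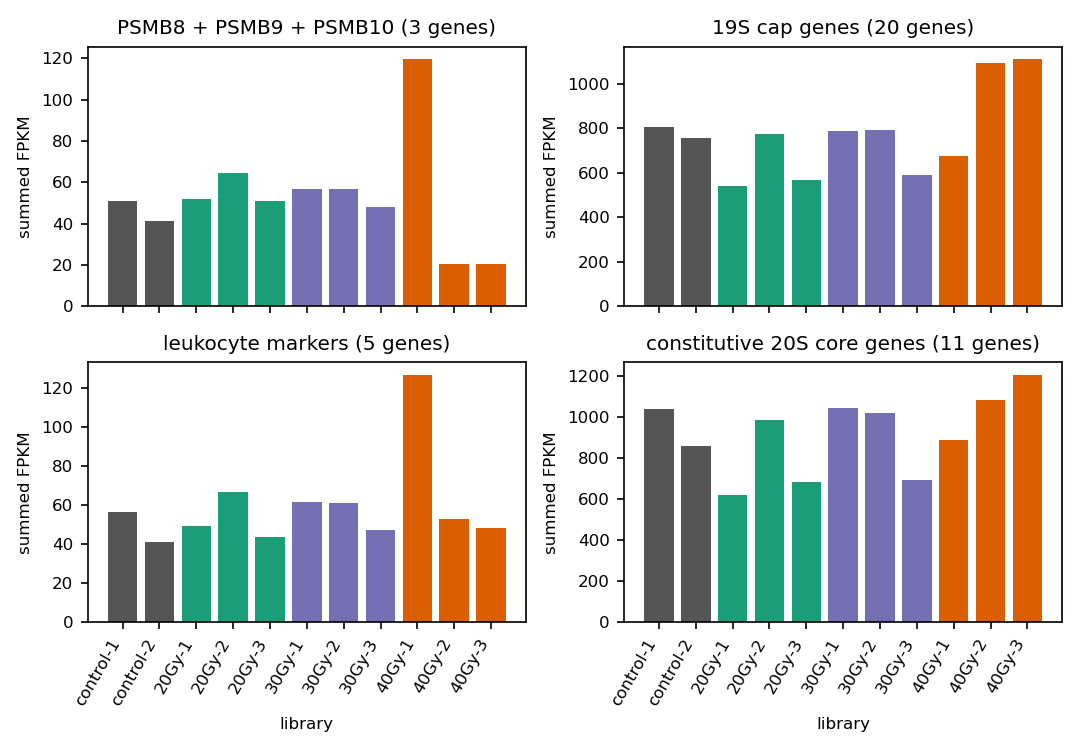
Summed FPKM (vertical axes, from 0) of the 3 immunoproteasome genes, the 20 genes of the 19S cap, 5 leukocyte markers and the 11 constitutive 20S core genes in each of the 11 libraries (horizontal axis), coloured by dose group. The immunoproteasome and leukocyte sums peak in 40Gy-1 at 119.5 and 127 FPKM, and the cap sum peaks in 40Gy-2 and 40Gy-3 at 1092 and 1110.4 FPKM. These are FPKM as deposited, not rescaled to a common total. As a share of all FPKM in the library, the sum of all 40 subunits and cofactors was highest in 40Gy-1 (0.375%), against 0.284% in 40Gy-2 and 0.272% in 40Gy-3.

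Genes of antigen processing and of interferon gamma signalling were examined beside them. Of 17 listed genes of class I antigen processing 9 were found and tested, and of 21 listed for the interferon gamma axis 18 were. The rest of both lists were not analysed. Of 9 genes of class I antigen processing none was called in irradiated against control livers and 2 rose in 40 Gy against 20 and 30 Gy livers, the calnexin gene CANX (0.75 on the log2 scale; limma, adjusted p = 0.040) and the chaperone gene PDIA3 (0.91; 0.049); the list's median in that comparison was 0.09, against 0.07 for all genes. The 2 are 22.2% of the list, close to the 21.5% of all genes called in either direction (11.8% higher, 9.71% lower). TAP1 had 6.995 and 5.43 FPKM in the controls, 6.79, 8.16 and 8.22 FPKM at 20 Gy, 7.66, 7.63 and 7.86 FPKM at 30 Gy, and 12.6, 5.76 and 5.98 FPKM at 40 Gy. It was highest in 40Gy-1, as PSMB8 and PSMB9 beside it were.

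Of 18 genes of the interferon gamma axis 1, CXCL9, rose in irradiated against control livers (2.89 on the log2 scale; limma, adjusted p = 0.0004), and in 40 Gy against 20 and 30 Gy livers 5 rose and 2 fell, or 38.9%, against 21.5% of all genes. Those that rose were the receptor genes IFNGR1 and IFNGR2, the kinase genes JAK1 and JAK2, and STAT2, and those that fell were CXCL9 and GBP2. The chemokine gene CXCL9, a target of interferon gamma, had 2.53 and 2.15 FPKM in the controls, 79.4, 67.3 and 90.3 FPKM at 20 Gy, 77.6, 77.4 and 93.6 FPKM at 30 Gy, and 2.60, 0.780 and 0.845 FPKM at 40 Gy. It was far above both controls in all 20 and 30 Gy libraries and close to them or lower at 40 Gy, with a log2 change of -5.16 in 40 Gy against 20 and 30 Gy livers (limma, adjusted p = 4.9e-06).

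Among 29 tested genes of ubiquitin and proteasome partners, none was called over all irradiated groups, TXNL1 rose at 40 Gy against control (0.91; limma, adjusted p = 0.034), and 5 rose and 1 fell in 40 Gy against 20 and 30 Gy livers, with a median of 0.40, against 0.07 for all genes. These 6 are 20.7% of the list, close to the 21.5% of all genes called in either direction (11.8% higher, 9.71% lower). Those that rose were USP14 (0.77 on the log2 scale), a deubiquitinase bound to the cap, TXNL1 (0.71), a thioredoxin-like protein of the cap, ECPAS (0.63), a proteasome adaptor, AKIRIN2 (0.87), which helps proteasomes into the nucleus, and ZFAND2A (2.02), a stress-induced proteasome binding protein. NFE2L1, the transcription factor that drives proteasome genes when proteasome activity is short, had 47.6 and 52.2 FPKM in the controls, 45.3, 37.8 and 40.3 FPKM at 20 Gy, 35.8, 33.4 and 39.4 FPKM at 30 Gy, and 48.4, 46.6 and 38.3 FPKM at 40 Gy. Its log2 change of 0.20 in 40 Gy against 20 and 30 Gy livers did not pass (limma, adjusted p = 0.338).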

How the data were processed

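RNA abundance was measured in 11 pig liver libraries by paired-end RNA sequencing. The deposited values are FPKM per gene, made by the authors; the submitters' processing notes name HISAT2, Cufflinks and HTSeq and the builds Sscrofa11.1 and mm10, with no role for each. The sources used here do not state the annotation, the strand setting or the filters, and read depth is unknown, so no counting interval can be given. Of 12505 genes in the deposited table, 10561 were paired with a symbol by gene ID; coordinates are those of RefSeq for Sscrofa11.1, matched by symbol. The proteasome genes PSMA6, PSMA8, PSMB5, PSMB6, PSMB11, PSMG1, PSMG2 and PSMG4 had no paired ID and were not analysed here, so PSMB10 against PSMB7 is the only pair of immunoproteasome and constitutive subunits measured.

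All 11644 genes with at least 1 FPKM in 2 or more libraries were tested on log2(FPKM + 1) with limma 3.58.1 (R 4.3.3), with 4 group means, a mean-dependent variance trend, two-sided tests and Benjamini-Hochberg adjustment over all of them; a gene was called at an adjusted p under 0.05. A fold change on this scale understates that of low genes. In means and SD the nearly identical libraries 30Gy-1 and 30Gy-2 entered once, as their mean; in the fit they stayed separate. Tables were made with Python 3.11.15 and pandas 2.3.3. Libraries were grouped by the dose and day in the labels, and all contrasts against the controls share the same 2 libraries.

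Genes named with all values are the catalytic subunits, PSME1 and PSME2, up to 6 called genes with the smallest adjusted p per comparison, and the genes with the highest and lowest change in irradiated against control livers in each class; PSMD7, CYP2E1 and the partner genes were singled out after their values were seen. The members, lists and tests were chosen with earlier results of these data known. Alternatives were another pseudocount, other filters, rescaling to a common total, quantile normalization, no variance trend, a replicate block, and leaving out or averaging libraries. The values of 1 gene of the partner list are not reported here.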

Additional observations from a re-analysis of the deposited data

How the results depend on the processing

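Counts of proteasome genes called moved with single libraries and with the treatment of nearly identical ones, and the causes were not tested; shares in brackets are those of all genes called in the same fit. With libraries rescaled to a common total, the count was 0 at 20 Gy (1.94%), 0 at 30 Gy (1.32%) and 2 at 40 Gy (3.16%) against control, and quantile normalization also gave 2 at 40 Gy (6.42%). Leaving out 20Gy-3 and 30Gy-3 gave 0 at 30 Gy against control (1.1%), 0 in 40 Gy against 20 and 30 Gy livers (10.3%), and 1 for any difference among the groups (5.14%). Averaging 30Gy-1 and 30Gy-2 gave 1 for any difference (7.32%), and doing so while leaving out 20Gy-3 and 30Gy-3 gave 0 over all irradiated groups (0.368%), 0 at 20 Gy (0.517%), 0 at 30 Gy (0.0702%), 0 in 40 Gy against 20 and 30 Gy livers (1.77%) and 0 for any difference (0.833%). Leaving out 40Gy-1 as well, chosen after seeing the data, gave 2 of 41 genes at 20 Gy (5.73%), 0 at 30 Gy (1.03%), 8, or 19.5%, at 40 Gy (15.9%) and 7, or 17.1%, for any difference (18.5%). Leaving out 1 library at a time gave 0 to 3 at 20 Gy (1.02 to 14.3%), 0 to 2 at 30 Gy (0.647 to 9.62%), 1 to 13 at 40 Gy (1.93 to 23.0%), 0 to 25 in 40 Gy against 20 and 30 Gy livers (7.33 to 40.0%), and 1 to 20 for any difference (5.41 to 36.0%). The highest counts and the highest shares of all genes came without 40Gy-1. With all libraries, the mean log2 ratio of PSMB10 to PSMB7 was -2.32 in the controls, -1.92 at 20 Gy, -2.18 at 30 Gy and -2.70 at 40 Gy. Irradiated minus control, it was -0.26 without 40Gy-1, the lowest of a range up to 0.22, so its sign depended on single libraries. Other alternatives left these counts within 1.5 times. Deviations from the group mean of 15 same-numbered pairs of libraries correlated at -0.616 to 0.645, with 7 above 0.1. Such deviations sum to 0 within a group, which forces part of the negative values. The check therefore cannot say whether replicate numbers pair the libraries. With the replicate number as a block, 1 gene in place of 2 passed for any difference (12.6%), and other counts stayed within 1.5 times.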
